A study of Mus musculus with 48 samples.

Results

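Heme biosynthesis enzymes were followed from monocytes to red pulp macrophages (RPMs) of the spleen, the macrophages that take up aged red blood cells and recycle their iron. The enzymes described are *Alas1*, *Alas2*, *Alad*, *Uros*, *Urod*, *Cpox*, *Ppox*, and *Fech*, chosen by gene symbol with a rule that uses no measured value, and all 8 were found among the 54735 genes of the count tables. Earlier results of these data were known when they were chosen.

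RNA-seq was performed on monocytes (Ly6Glo CD11bhi F4/80-), pre-RPMs (Ly6Glo CD11bhi F4/80lo), and RPMs (Ly6Glo CD11blo/- F4/80hi) sorted from the spleens of male Balb/c mice aged 10 weeks, either wild type (WT) or labelled *Il1rl1*-/- on a Balb/c background. *Il1rl1* encodes the receptor of the cytokine IL-33, and the deletion was not restricted to any cell type. No group received a treatment, and 4 mice of each genotype gave 1 library per cell type, 24 libraries in all. Total counts per library ranged from 3562367 to 6559454 (median 4728764), and at that depth a count of 3, the limit treated here as not told apart from 0, equals 0.457 to 0.842 CPM. A single gene, *Gm42418*, which overlaps ribosomal RNA sequence, took between 24.4% and 38.8% of the counts of a library. Counts of *Il1rl1* went against the genotype label in monocytes and pre-RPMs, where the libraries labelled *Il1rl1*-/- held 42 to 76 counts and the WT libraries 12 to 28. In RPMs the receptor was low under both labels, with 5 to 13 counts in WT and 1 to 7 in libraries labelled *Il1rl1*-/-. The comparisons between genotypes are therefore comparisons between labels. Each library came from a single mouse, so the p-values measure the spread between libraries of different mice. The cell types of a genotype come from the same 4 mice, and the main fits did not use that pairing. Fits with the mouse number as a block are given as an alternative. Of the markers of the sorted populations, *Ccr2*, a chemokine receptor of monocytes, was at 149 to 646 normalized CPM in the monocyte and pre-RPM libraries, and *Mertk*, a macrophage receptor for dying cells, was at 451 to 570 CPM in the RPM libraries. Not every listed monocyte marker was highest in monocytes, as *Csf1r* was at 112 to 585 CPM in monocytes and pre-RPMs and 1320 to 1740 in RPMs. The WT monocyte libraries also held neutrophil markers (1600 ± 760 CPM summed) and NK and T cell markers (1160 ± 523), beside 974 ± 370 CPM of monocyte markers, and the order of the 3 sums differed between libraries. Normalized CPM are counts scaled to a common library total, with TMM factors over the 24 libraries.

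Heme is made in a chain that starts and ends in mitochondria. An aminolevulinate synthase joins glycine to succinyl-CoA in the first and rate-limiting step, and it exists as a form used by most cells, encoded by *Alas1* and repressed by heme, and an erythroid form, encoded by the X-linked *Alas2*. The middle enzymes assemble the porphyrin ring in the cytosol (*Alad*, *Uros*, *Urod*), *Cpox* and *Ppox* oxidize it at the mitochondrion, and *Fech* inserts the iron. Developing red blood cells run the pathway at the highest rate of any cell, whereas RPMs are known for the opposite reaction, the breakdown of heme by heme oxygenase 1.

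The erythroid synthase has a promoter of its own, and its sequence is shown because *Alas2* moved most among the enzymes. *Alas2* lies on the plus strand of chromosome X of GRCm38, from 150547375 to 150570638, and the 208 bases before that start (GRCm38.p6, plus strand, chrX:150547167-150547374, from RefSeq) read as follows, with the letters of a GATA motif in capitals.
Alas2 upstream: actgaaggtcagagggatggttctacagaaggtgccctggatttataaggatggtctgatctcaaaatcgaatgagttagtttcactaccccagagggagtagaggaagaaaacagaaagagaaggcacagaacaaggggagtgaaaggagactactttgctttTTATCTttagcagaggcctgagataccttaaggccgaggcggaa
The capitals start at position 150547331 and are AGATAA on the minus strand. For 7 of the 8 enzymes, 10 RefSeq starts were used here, and the 250 bases before each start were searched on both strands. The GATA letters (AGATAA or AGATAG, as well as TGATAA or TGATAG) were found 1 time for *Alas2*, 2 times for *Cpox* (matches that share 1 base), and 2 times before 1 of the 2 starts of *Uros*, and they occur in 26.5% of 32851 promoters of that length. CACCC, the letters bound by KLF factors, occurred 3 times for *Alas2* (RefSeq places the start of the gene further downstream, at 150547417) 4 times for *Cpox*, 1 time before each of the 2 starts of *Alas1*, and 1 time before 1 of the 2 starts of *Alad*, and is held by 52% of promoters. The E-box CACGTG, held by 6.02% of promoters, was found for both starts of *Alad*, 1 start of *Uros*, and *Urod*. TGAGTCA and its reverse complement TGACTCA (4.46% of promoters) were in none of the 10. These are matches of letters only.

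*Alas1* was present at a similar level in all 6 groups (the plot of CPM by group and mouse). It lies on chromosome 9 (106233455 to 106248654, minus strand), and its mean was 18.9 ± 5.19 CPM in WT monocytes, 24.5 ± 3.44 in WT pre-RPMs, and 20.7 ± 1.01 in WT RPMs (SD, n = 4 in every group). In libraries labelled *Il1rl1*-/-, the means were 19.4 ± 3.06, 22.7 ± 0.861, and 20.5 ± 3.40 CPM. Neighbouring stages overlapped in each genotype. *Alas2* had the opposite behaviour. It was at 0.247 to 1.61 CPM in the 8 monocyte libraries, which corresponds to between 1 and 8 counts, and at 68.6 to 2030 CPM in the 8 RPM libraries. Per kilobase of exon, the enzymes of WT RPMs stood in the order *Alas2* (325 ± 370 CPM per kilobase), *Fech* (87.4 ± 93.0), *Urod* (8.46 ± 2.18), *Ppox* (5.10 ± 0.273), *Alad* (4.01 ± 0.441), *Alas1* (3.35 ± 0.163), *Cpox* (2.55 ± 0.245), and *Uros* (1.89 ± 0.331). *Alas2* was above *Fech* in each of the 4 WT RPM libraries, and both varied far more between mice than the other 6 enzymes.

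**Figure D1:**
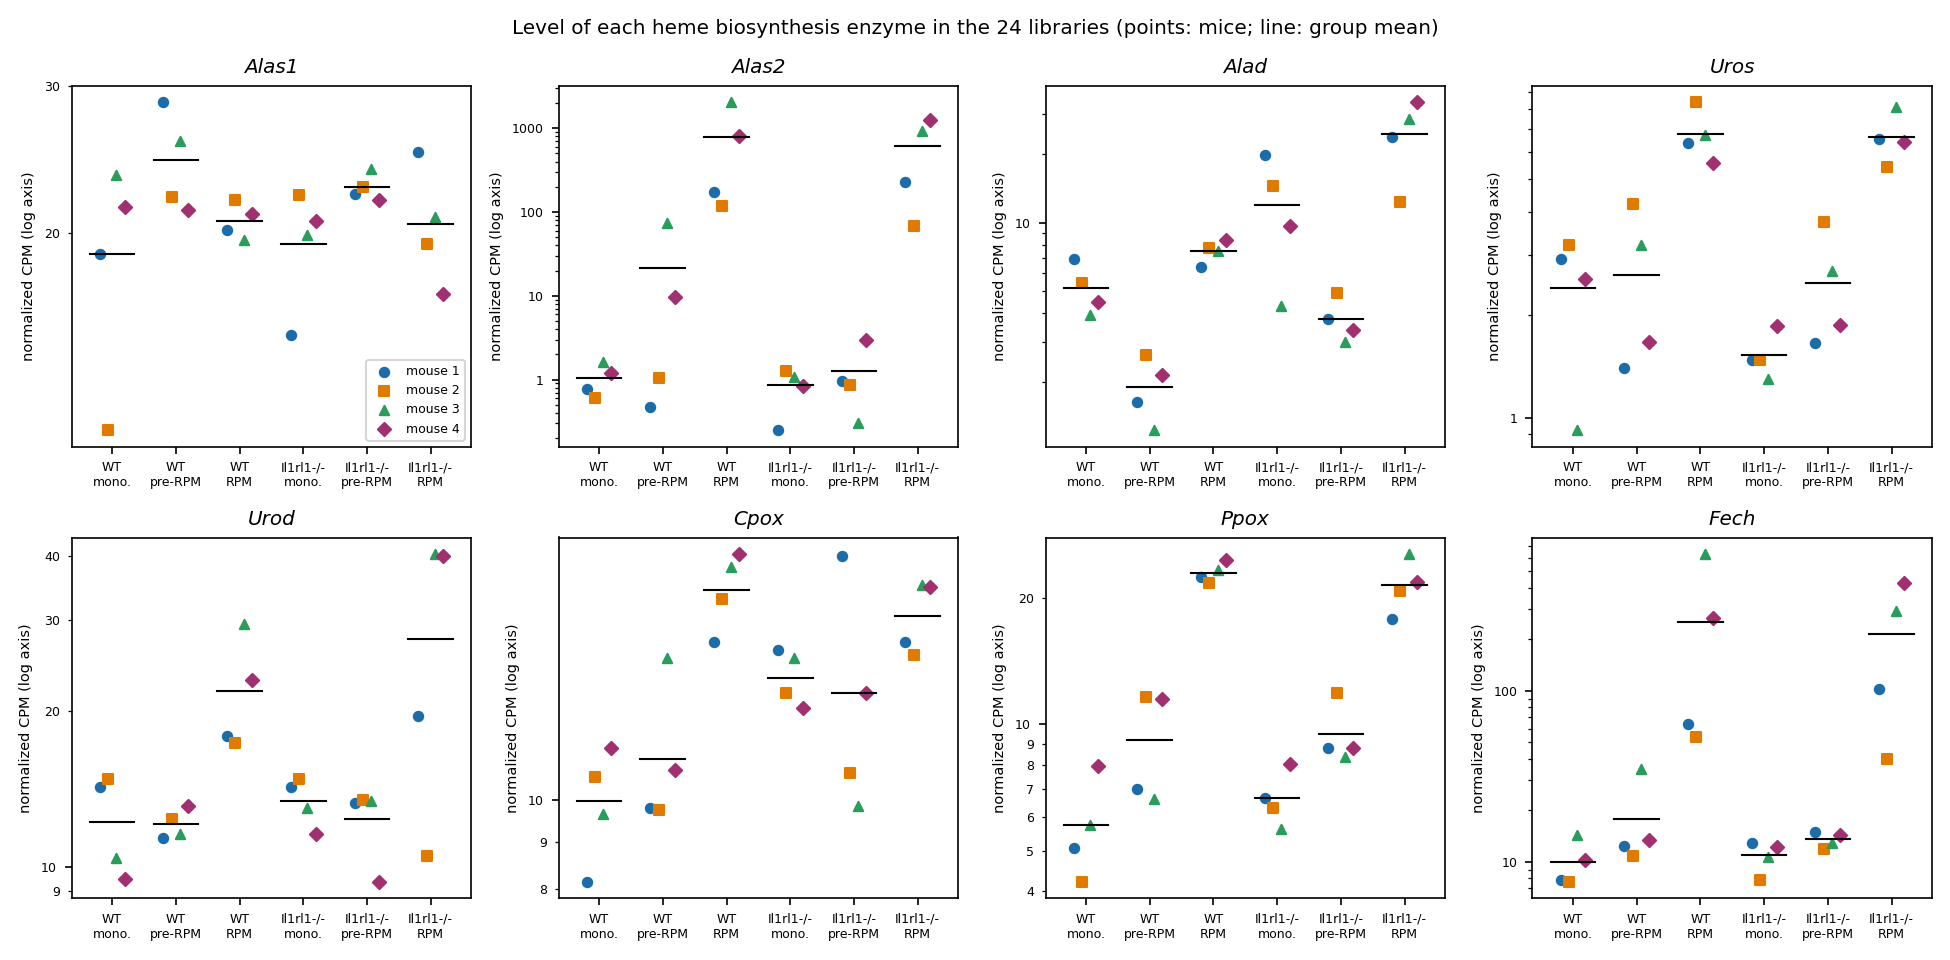
Normalized CPM of each enzyme on a log axis (vertical, a different range in each panel) in the 6 groups (horizontal). Points are single mice, with 1 colour and shape per mouse number, the line is the group mean, and "Il1rl1-/-" groups are named by their label. *Alas1* stays between 11.6 and 28.7 CPM throughout, whereas *Alas2* and *Fech* rise in RPMs and are highest in mice 3 and 4 of both genotypes.

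The passage from pre-RPM to RPM, which the study examined as the last step of RPM development, brought 5 of the 8 enzymes up at least 2-fold in WT: *Alas2*, *Alad*, *Uros*, *Ppox*, and *Fech*. These 5 were also called in libraries labelled *Il1rl1*-/-, and no enzyme was called lower in either genotype. *Alas2*, *Alad*, and *Uros* in WT, and *Alas2* and *Uros* in libraries labelled *Il1rl1*-/-, passed the filter on low counts through the RPM libraries, so that for them only a rise could be called, and the count and the medians over enzymes are no support for a direction. *Ppox* and *Fech* passed in both cell types on their own. Calls between cell types needed an adjusted p under 0.01 together with a log2 fold change beyond 1 in either direction. By this rule, 24.7% of the 11239 genes tested were called in WT, with 14% of genes tested called as higher, and 26% of 11437 in libraries labelled *Il1rl1*-/-, 14.5% as higher. The median log2 fold change over the 8 enzymes was 1.31 in WT and 1.21 in libraries labelled *Il1rl1*-/-, beside −0.00 over all genes tested in both. The RNA was taken from sorted populations, in which a changed share of cells of a type and a changed amount of RNA per cell cannot be told apart.

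The rise was largest for the erythroid synthase. In WT pre-RPMs of mice 1 to 4, the counts of *Alas2* were 2, 4, 303, and 40, or 0.467, 1.05, 74.5, and 9.56 CPM. In WT RPMs they were 806, 577, 7568, and 3459, or 171, 118, 2030, and 802 CPM. Every RPM library exceeded every pre-RPM library, but mice 3 and 4 were far above mice 1 and 2 in both cell types. In edgeR's quasi-likelihood test, *Alas2* had a log2 fold change of 5.15 (SE 1.17, adjusted p = 0.00207). Single libraries moved it from 4.04 (without WT RPM replicate 3) to 7.65 (without WT pre-RPM replicate 3). Without WT pre-RPM replicate 4 it was 4.90 and no longer called (edgeR's adjusted p = 0.0106), while without mice 3 and 4, an alternative added after the values were seen, it was 7.49 (edgeR's adjusted p = 1.72e-11). In pre-RPMs labelled *Il1rl1*-/-, the counts were 4, 5, 1, and 16 (0.949, 0.852, 0.299, and 2.99 CPM), and in RPMs labelled *Il1rl1*-/- they were 1013, 418, 4165, and 5869 (228, 68.6, 917, and 1260 CPM). Here too the groups did not overlap, and mice 3 and 4 held the most *Alas2* among RPMs. *Alas2* had a log2 fold change of 8.74 (edgeR, SE 0.94, adjusted p = 1.16e-06), a fold that rests on the 1 to 16 counts of each pre-RPM library, near the detection limit, so that its size is poorly resolved. Every mouse of both genotypes had more *Alas2* in its RPMs than in its pre-RPMs. Per kilobase of exon, *Alas1* was at 3.97 ± 0.558 and *Alas2* at 8.90 ± 14.8 CPM per kilobase in WT pre-RPMs, where mouse 3 held most of the *Alas2*, and they were at 3.35 ± 0.163 and 325 ± 370 in WT RPMs. *Alas1* itself did not pass the test in WT (log2 fold change −0.29, SE 0.13, adjusted p = 0.0765) or in libraries labelled *Il1rl1*-/- (−0.20, SE 0.13, adjusted p = 0.197, edgeR).

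The last enzyme of the chain, *Fech* (chromosome 18, 64456550 to 64489066, minus strand), followed the erythroid synthase. The level of *Fech* in WT pre-RPMs of mice 1 to 4 was 12.4, 10.8, 34.7, and 13.4 CPM, and in WT RPMs 64.0, 53.6, 631, and 265 CPM. In pre-RPMs labelled *Il1rl1*-/- it was 15.0, 11.8, 12.8, and 14.4 CPM, and in the corresponding RPMs 103, 39.9, 293, and 424 CPM. The lowest RPM library was above the highest pre-RPM library in both genotypes, and the RPM libraries differed among themselves by 11.8-fold in WT and 10.6-fold in libraries labelled *Il1rl1*-/-. The log2 fold change was 3.78 (SE 0.70, adjusted p = 0.000442) in WT and 3.94 (SE 0.56, adjusted p = 2.23e-05) in libraries labelled *Il1rl1*-/- (edgeR). Unlike *Alas2*, *Fech* was well above the detection limit in monocytes, at 7.62 to 14.3 CPM. Without mice 3 and 4, the rise of *Fech* was smaller, 2.28 in WT and 2.37 in libraries labelled *Il1rl1*-/- (edgeR's adjusted p = 2.63e-08 and 9.25e-05).

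The other enzymes called, *Alad*, *Ppox*, and *Uros*, rose less than *Alas2* and *Fech* and varied less between the RPM libraries. *Alad*, which joins the first intermediate in pairs (chromosome 4, 62509169 to 62519918, minus strand), went from 1.63, 2.63, 1.23, and 2.15 CPM in WT pre-RPMs to 6.38, 7.77, 7.51, and 8.35 in WT RPMs. Its log2 fold change was 1.92 (SE 0.27, adjusted p = 3.48e-05) in WT and 2.59 (SE 0.30, adjusted p = 2.59e-06) in libraries labelled *Il1rl1*-/-. *Ppox* (chromosome 1, 171275990 to 171281186, minus strand) went from 7, 11.6, 6.64, and 11.5 to 22.5, 21.7, 23.3, and 24.6 CPM in WT, with the WT RPMs within 1.13-fold of each other. Its log2 fold change was 1.28 (SE 0.18, adjusted p = 4.49e-05) in WT and 1.11 (SE 0.16, adjusted p = 3.06e-05) in libraries labelled *Il1rl1*-/-. *Uros*, which closes the porphyrin ring (chromosome 7, 133686243 to 133710072, minus strand), had the lowest level of the middle enzymes per kilobase in RPMs. It rose from 2.62 ± 1.32 to 6.76 ± 1.18 CPM in WT (log2 fold change 1.33, SE 0.32, adjusted p = 0.00293) and from 2.49 ± 0.947 to 6.63 ± 1.13 in libraries labelled *Il1rl1*-/- (1.31, SE 0.29, adjusted p = 0.00118). The WT call for *Uros* was lost without WT pre-RPM replicate 1 (1.11, adjusted p = 0.0122) or replicate 4 (1.16, adjusted p = 0.0125), and neither *Uros* nor *Ppox* was called in either genotype when a change above 2-fold was itself tested. Without mice 3 and 4, *Uros* was not called in WT (1.36, adjusted p = 0.0182) or in libraries labelled *Il1rl1*-/- (1.03, adjusted p = 0.0705), nor *Ppox* in the latter (0.85, adjusted p = 0.00671), which left 4 enzymes called in WT and 3 in libraries labelled *Il1rl1*-/-.

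*Urod* and *Cpox* were not called in either genotype. *Urod* (chromosome 4, 116989965 to 116994413, minus strand) was at 17.9, 17.4, 29.5, and 23.0 CPM in WT RPMs, all above the WT pre-RPMs at 11.4 to 13.1, but its log2 fold change of 0.80 (SE 0.18, adjusted p = 0.00212) was under the 2-fold limit. In RPMs labelled *Il1rl1*-/- it was at 19.6, 10.5, 40.3, and 40.0 CPM. The value of mouse 2 lay within the range of the pre-RPMs, 9.36 to 13.5, while mice 3 and 4 stood well above it. The log2 fold change was 1.09 (SE 0.34, adjusted p = 0.0129), it was called without RPM replicate 1 (1.22, adjusted p = 0.00827) or replicate 2 (1.40, adjusted p = 6.71e-05), and without mice 3 and 4 it was 0.0966 (adjusted p = 0.807). It was also called in a single fit of all 24 libraries (1.15, adjusted p = 0.00149) and when every gene with at least 1 count was tested (1.10, adjusted p = 3.62e-12). *Cpox* (chromosome 16, 58670292 to 58717636, plus strand) changed by 0.56 (SE 0.16, adjusted p = 0.0103) in WT and 0.23 (SE 0.18, adjusted p = 0.314) in libraries labelled *Il1rl1*-/-. All adjusted p-values of these enzymes are from edgeR's quasi-likelihood test. Together, the 6 enzymes other than *Alas2* and *Fech* summed to 61.5 ± 1.45 CPM in WT pre-RPMs and 97.0 ± 7.47 in WT RPMs, and to 63.9 ± 4.83 and 116 ± 26.8 in libraries labelled *Il1rl1*-/- (SD, n = 4).

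**Figure D2:**
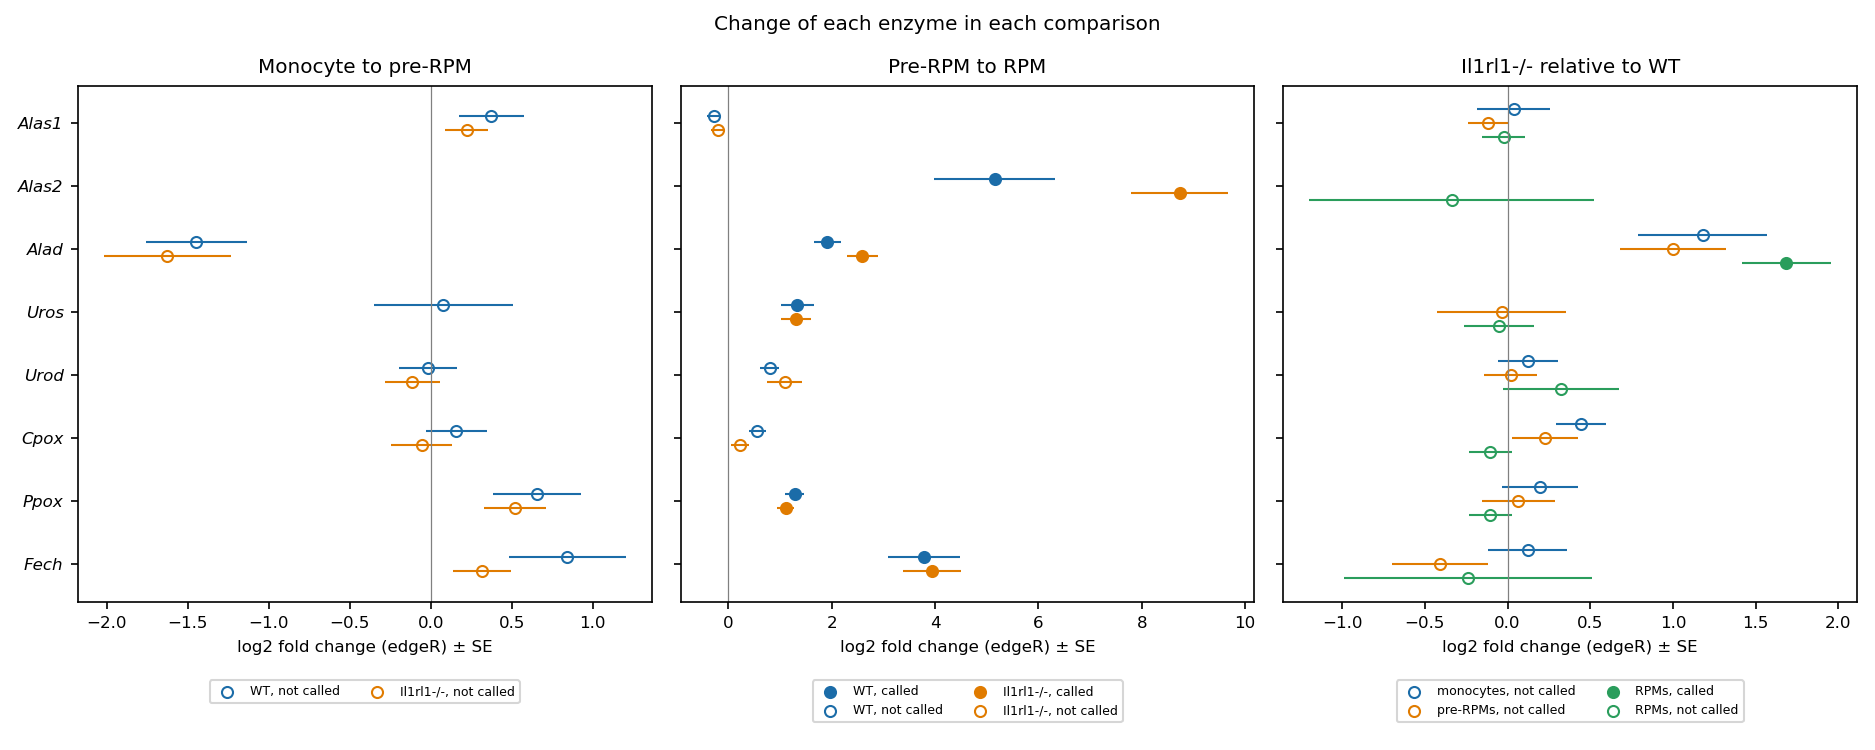
Log2 fold change (horizontal, ± SE, from edgeR) of the 8 enzymes (vertical) from monocyte to pre-RPM, from pre-RPM to RPM, and in libraries labelled *Il1rl1*-/- relative to WT in each cell type. Filled points passed the threshold of their comparison and open points did not, an enzyme without a point was removed by the filter on low counts, and the horizontal ranges differ between panels. From pre-RPM to RPM, 5 enzymes are filled in each genotype, *Alas1* lies slightly below 0, and between genotypes only *Alad* in RPMs is filled.

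Markers of the red blood cell lineage moved with *Alas2* and *Fech*. Of 18 erythroid marker genes listed, 17 were used here and 15 passed the filter on low counts. All 15 were called higher in RPMs in both genotypes, with medians of 4.37 in WT and 6.02 in libraries labelled *Il1rl1*-/-, but many of them passed the filter through the RPM libraries, so that this count and these medians are no support for a direction. The most abundant was *Hbb-bs*, an adult beta globin. The largest WT rises were in *Hba-a1* (6.06, SE 1.22, adjusted p = 0.000842), *Hbb-bs* (6.04, SE 1.32, adjusted p = 0.00156), *Hbb-bt* (5.84, SE 1.03, adjusted p = 0.000273), and *Trim10* (5.36, SE 0.73, adjusted p = 2.59e-05, edgeR). The summed level of the 17 genes was 2050, 1460, 22800, and 9690 CPM in WT RPMs of mice 1 to 4, and 2810, 929, 11000, and 14900 CPM in RPMs labelled *Il1rl1*-/-. In pre-RPMs it was 26.8, 19.5, 600, and 103 CPM in WT and 16.1, 23.2, 38.2, and 41.5 in libraries labelled *Il1rl1*-/-, and in the monocyte libraries 10.3 to 29.9. The RPM libraries of mice 3 and 4 thus had the highest sums in both genotypes, as they had the most *Alas2* and *Fech*. Mice 3 and 4 were both above mice 1 and 2 for 11 of the 17 markers in WT RPMs, the exceptions being *Klf1*, *Epor*, *Rhd*, *Kel*, *Tspo2*, and *Cldn13*, and for 15 of 17 in RPMs labelled *Il1rl1*-/-, the exceptions being *Epor* and *Cldn13*. The labels give all libraries of a mouse number the same second index sequence, also across genotypes, so that mouse number and index cannot be told apart.

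The sum does not include *Alas2*, and it is mostly globin (21600 of 22800 CPM in WT RPMs of mouse 3 and 742 of 929 CPM in RPMs of mouse 2 labelled *Il1rl1*-/-). The level of *Alas2* equalled 8.38%, 8.07%, 8.90%, and 8.27% of the level of the sum in WT RPMs of mice 1 to 4, and 8.13%, 7.38%, 8.36%, and 8.44% in RPMs labelled *Il1rl1*-/-, while the sum itself ranged from 929 to 22800 CPM. The ratio was not constant against the 13 markers other than globins, which summed to 320, 385, 1200, and 773 CPM in WT RPMs, beside 171, 118, 2030, and 802 CPM of *Alas2*, and to 395, 188, 958, and 1120 CPM in RPMs labelled *Il1rl1*-/-, beside 228, 68.6, 917, and 1260 CPM. The ratio of *Fech* to *Alas2* was between 0.311 and 0.581 in the 8 RPM libraries, and between 4.81 and 43.0 in the pre-RPMs labelled *Il1rl1*-/-, where *Alas2* was at most 16 counts. In the 2 WT pre-RPM libraries with the most *Alas2*, those of mice 3 and 4, the level of *Alas2* equalled 12.4% and 9.28% of that of the sum. Some erythroid genes were low in all libraries, though each had its highest counts in RPMs. *Klf1*, the transcription factor that drives the erythroid program, reached at most 24 counts. *Tspo2* and *Cldn13* were at 0 in 11 and 13 of the 24 libraries, none of them RPMs. In the RPM libraries they were at 4 to 19 and 6 to 16 counts. The part of erythroid RNA in the rise of each enzyme was not tested.

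**Figure D3:**
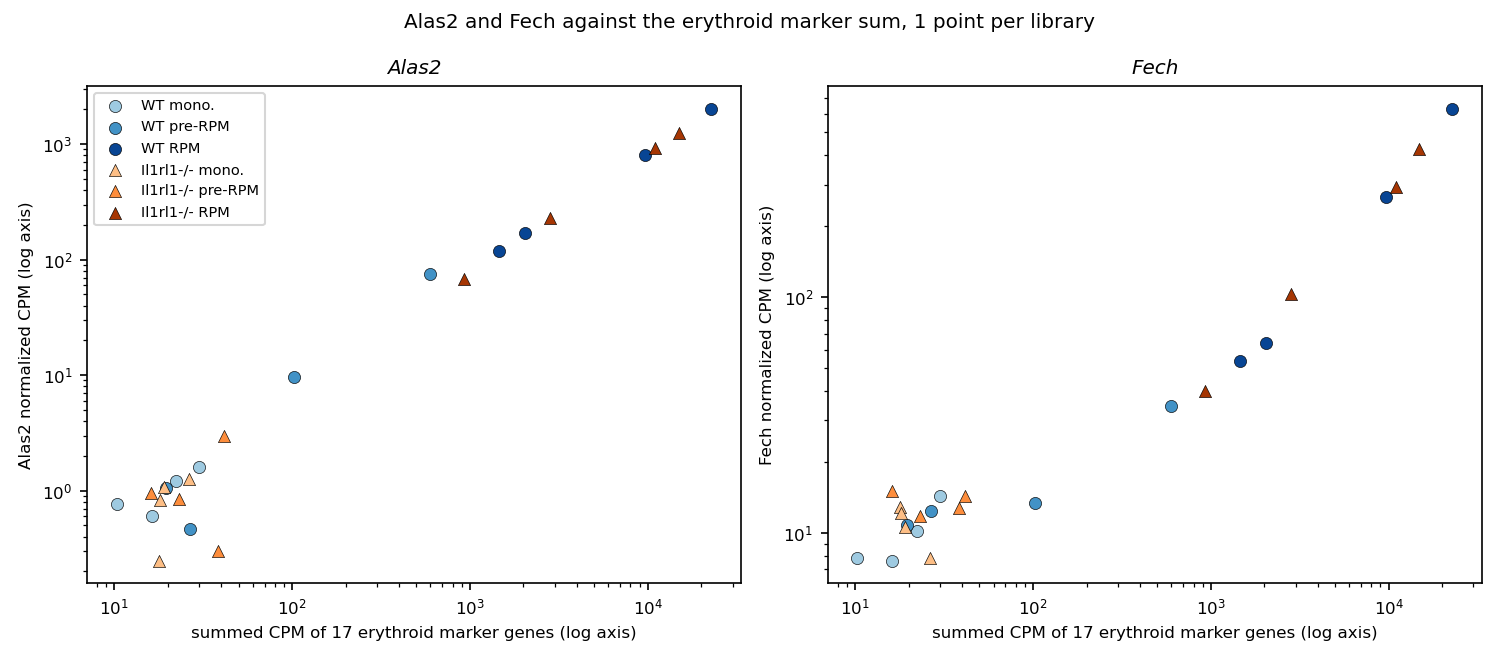
Normalized CPM of *Alas2* (left) and *Fech* (right) on log axes against the summed CPM of the 17 erythroid marker genes, with 1 point per library, circles for WT and triangles for libraries labelled *Il1rl1*-/-. In the 8 RPM libraries *Alas2*, which is not in the sum, lies close to a straight line, at a level equal to 7.38% to 8.90% of that of the sum, whereas *Fech* levels off at about its monocyte level, 7.62 to 14.3 CPM, where the sum is low.

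The WT pre-RPM library of mouse 3 stood apart in other genes as well. *Mertk* was at 5.41 CPM there and at 0.233, 0.790, and 1.91 in mice 1, 2, and 4, and *Hmox1*, heme oxygenase 1, was at 64.4 CPM against 18.0, 14.0, and 26.5. Its sum over 12 RPM marker genes was 360 CPM, beside 156 to 193 in the other WT pre-RPMs and 6180 to 7720 in WT RPMs. Among these genes, *Spic* was highest in mouse 4 (16.2 CPM beside 14.0 in mouse 3) and *Adgre1* in mouse 1 (81.0 beside 65.2). *Treml4* (52.1 beside 39.4 to 46.5) and the other RPM markers were highest in mouse 3. All 12 RPM markers were called higher in RPMs than in pre-RPMs in both genotypes (median log2 fold change 6.06 and 8.06), but *Vcam1*, *Cd5l*, *Cd163*, *Mertk*, *Slco2b1*, *C6*, and *Itgad* passed the filter on low counts through the RPM libraries, so the count and medians are no support for a direction. They were led in WT by *Mertk* (7.85), *Vcam1* (6.82), *Slco2b1* (6.75), and *Itgad* (6.70). Of 8 monocyte markers, 6 were called lower and 1, *Csf1r*, higher in both genotypes, and of the former *Ly6c2*, *Ccr2*, *Vcan*, *F13a1*, and *Itgam* were too low in RPMs to pass the filter there, so the count carries the same limit, with *F13a1* (−7.22), *Ccr2* (−6.18), *Itgam* (−5.01), and *Ly6c2* (−4.43) changing most in WT. Neutrophil genes summed to 111 ± 46.0 CPM in WT pre-RPMs and 12.7 ± 1.69 in WT RPMs, and to 194 ± 92.3 and 2.86 ± 1.73 in libraries labelled *Il1rl1*-/-. The 5 of 8 that were tested passed the filter on low counts through the pre-RPMs, so their shared direction is no result (in WT *Camp* fell by 3.85, *Ltf* by 3.63, *Ngp* by 3.52, and *S100a8* by 3.19 on the log2 scale), and of 8 megakaryocyte and platelet genes *Itga2b* alone could be tested, in WT, where it fell by 1.13. Of the NK and T cell genes, 2 rose (*Cd3g* 1.95, *Cd3e* 1.81) and 3 fell of 6 tested in WT (*Gzma* −2.65, *Ncr1* −2.42, *Prf1* −1.93), and none rose and 2 fell in libraries labelled *Il1rl1*-/-. *Ncr1* and *Prf1* were as low as 1.86 and 1.61 CPM in WT RPMs, and *Cd3g* as low as 1.48 in WT pre-RPMs. The WT count therefore carries the same limit. Of 7 B and plasma cell genes tested, none was called in WT and 1 fell in libraries labelled *Il1rl1*-/-. Among eosinophil, basophil, and mast cell genes, 3 were tested in each genotype, of which 1 rose and 1 fell (in WT *Ccr3* 3.05 and *Hdc* −4.08). *Hdc* was at 0 to 0.928 CPM in WT RPMs. *Siglecf*, which fell in libraries labelled *Il1rl1*-/-, was at 0.428 to 0.901 in those RPMs. For these genes only a fall could be called. Cell cycle genes rose in 4 of 5 tested in each genotype, led in WT by *Mki67* (2.91), *Ccna2* (2.87), *Top2a* (1.81), and *Cdk1* (1.68). In WT pre-RPMs *Ccna2* was at only 0.717 to 1.72 CPM and *Cdk1* at 0.527 to 2.46, so this count carries the same limit.

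The genes that serve the pathway moved in both directions. Of 22 genes of heme transport and of the supply of iron and substrate, 20 were tested, and 6 rose and 1 fell from pre-RPM to RPM in WT, with a median log2 fold change of 0.54, while 9 rose and 2 fell in libraries labelled *Il1rl1*-/- (median 0.75). Beside these counts, 14% of all genes tested rose and 10.7% fell in WT, and 14.5% and 11.5% in libraries labelled *Il1rl1*-/-. *Slc25a37*, the mitochondrial iron importer mitoferrin, rose by 3.74 in WT (SE 0.65, adjusted p = 0.000235). It was at 72.5, 71.8, 638, and 286 CPM in WT RPMs and at 106, 39.2, 321, and 447 CPM in RPMs labelled *Il1rl1*-/-. As with *Fech*, mice 3 and 4 were the highest in both genotypes. *Tfrc*, the transferrin receptor, rose by 3.35 (SE 0.17, adjusted p = 9.95e-10), to 58.3, 50.7, 68.1, and 46.4 CPM in WT RPMs and 40.1, 40.4, 69.8, and 62.0 in RPMs labelled *Il1rl1*-/-. Mice 3 and 4 were above mice 1 and 2 in the latter but not in WT. *Slc25a39* (2.70, SE 0.52, adjusted p = 0.000594) and *Slc11a2*, an iron importer (1.45, SE 0.16, adjusted p = 4.39e-06), also rose in WT. *Slc25a38*, which carries the glycine for the first step into mitochondria, had a log2 fold change of 0.03 in WT (SE 0.22, adjusted p = 0.922) and 0.07 in libraries labelled *Il1rl1*-/- (SE 0.25, adjusted p = 0.827). *Clpx*, which activates aminolevulinate synthase, was at 0.27 (adjusted p = 0.295) and 0.28 (adjusted p = 0.135). *Abcb10*, a partner of mitoferrin, was at 0.84 (SE 0.18, adjusted p = 0.00114) in WT and rose by 1.09 (SE 0.28, adjusted p = 0.00421) in libraries labelled *Il1rl1*-/-, and *Pgrmc1*, a partner of ferrochelatase, was at 0.57 (adjusted p = 0.0393) in WT and rose by 1.03 (adjusted p = 0.000185) in libraries labelled *Il1rl1*-/-. All are edgeR fits.

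Genes of heme use and breakdown rose in 7 of 13 and fell in 1 of 13 in both genotypes, with median log2 fold changes of 1.84 in WT and 1.95 in libraries labelled *Il1rl1*-/-. Over all genes tested, 14% rose and 10.7% fell in WT, and 14.5% and 11.5% in libraries labelled *Il1rl1*-/-. *Slc40a1*, the iron exporter ferroportin, rose by 6.65 in WT (SE 0.39, adjusted p = 5.07e-09), *Hmox1* by 5.03 (SE 0.40, adjusted p = 1.15e-07), *Blvrb*, a biliverdin reductase, by 3.40 (SE 0.13, adjusted p = 1.8e-10), and *Slc48a1*, which carries heme out of the phagolysosome, by 2.95 (SE 0.21, adjusted p = 3.83e-08, edgeR). The level of *Hmox1* in RPMs was 991, 888, 1010, and 1240 CPM in WT and 1420, 1230, 1460, and 1190 in libraries labelled *Il1rl1*-/-. These values spanned less than 2-fold over the 8 RPM libraries, in which *Alas2* spanned from 68.6 to 2030 CPM.

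Regulators of the pathway were divided. Of 17 tested in WT, 5 rose and 3 fell (median log2 fold change −0.05), and of 15 in libraries labelled *Il1rl1*-/-, 5 rose and 2 fell (median 0.59). The shares over all genes tested were 14% higher and 10.7% lower in WT, and 14.5% and 11.5% in libraries labelled *Il1rl1*-/-. *Spic*, the transcription factor of RPMs, rose by 4.52 in WT (SE 0.18, adjusted p = 1.88e-10), and *Klf1*, which is also one of the erythroid markers, by 3.62 (SE 0.50, adjusted p = 3.27e-05), from 0 to 2 counts in WT pre-RPMs to 10 to 20 in WT RPMs. *Klf1* and *Tal1* passed the filter on low counts through the RPM libraries in both genotypes and *Gata2* through the WT pre-RPMs, so the counts of regulators carry that limit. *Gata2* fell by 3.01 in WT (SE 0.52, adjusted p = 0.00023) and was removed by the filter on low counts in libraries labelled *Il1rl1*-/-. *Nfe2* fell by 2.81 in WT (SE 0.15, adjusted p = 2.02e-09), and *Bach1*, a heme-sensing repressor, by 2.5 (SE 0.11, adjusted p = 5.17e-10). *Gata1*, the main activator of *Alas2* in erythroid cells, was at 3.19, 2.04, 1.34, and 1.62 CPM in WT RPMs and 4.67, 3.16, 1.48, and 4.06 in WT pre-RPMs, and its log2 fold change of −0.73 did not pass the test (SE 0.38, adjusted p = 0.13). In RPMs labelled *Il1rl1*-/- it was at 1.80, 1.48, 2.86, and 1.28 CPM. These low values did not follow *Alas2* across mice in the same way under both labels. *Aco1* and *Ireb2*, the iron regulatory proteins that control translation of *Alas2*, changed by 0.77 (SE 0.16, adjusted p = 0.00132) and −0.50 (SE 0.15, adjusted p = 0.0111) in WT and were not called in either genotype (edgeR).

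**Figure D4:**
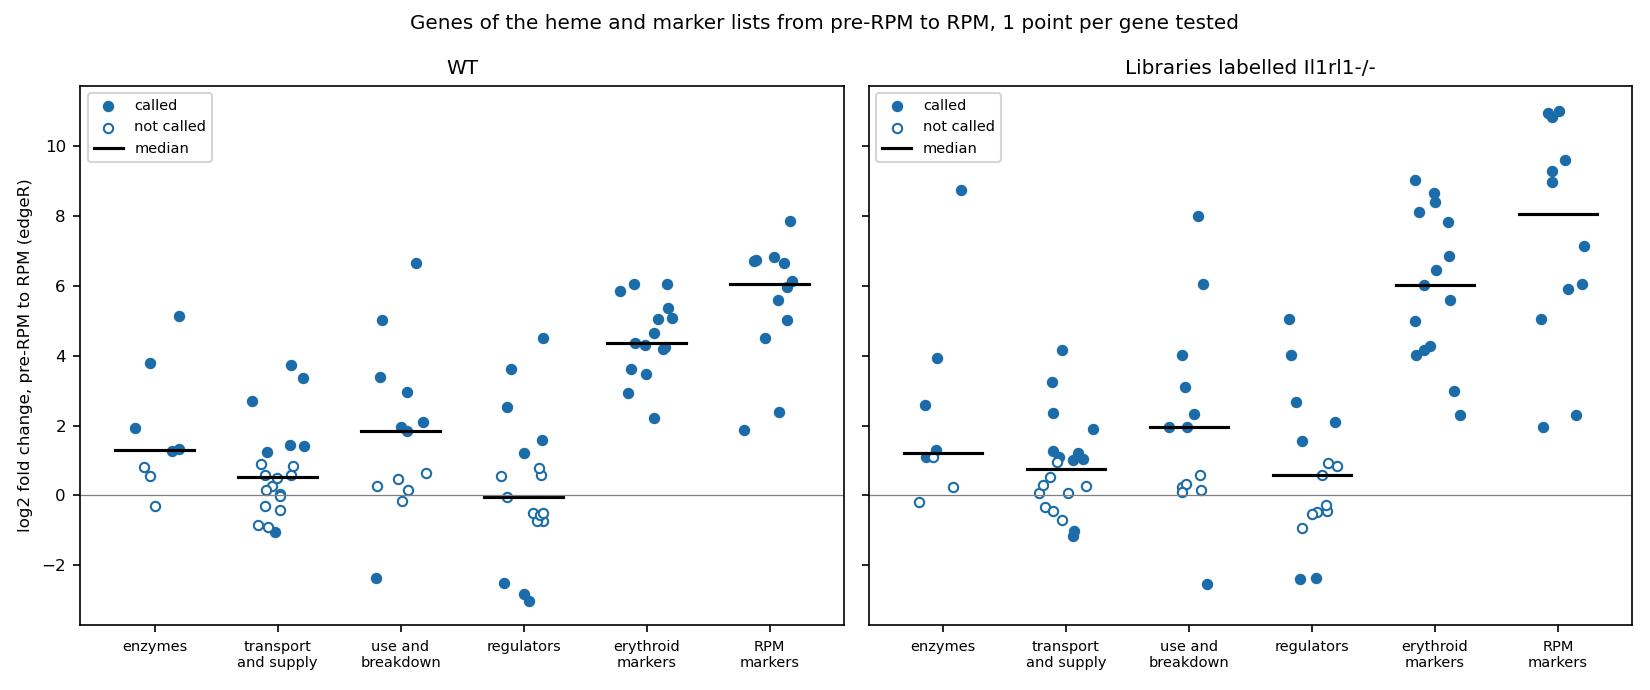
Log2 fold change from pre-RPM to RPM (vertical, from edgeR) of every gene tested in the list of enzymes, 3 further lists of heme genes, and the erythroid and RPM marker lists (horizontal), in WT (left) and in libraries labelled *Il1rl1*-/- (right). Filled points were called, open points were not, and the line is the median of the list, from −0.05 for the regulators to 6.06 for the RPM markers in WT.

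The earlier passage, from monocyte to pre-RPM, brought smaller changes, and no enzyme was called by edgeR in either genotype at the same threshold. Of all genes tested, 3.57% of 11091 were called in WT, and 4.85% of 11196 in libraries labelled *Il1rl1*-/-. At an unadjusted p under 0.05, the enzymes that passed were *Alad*, *Ppox*, and *Fech* in WT, and *Alad* and *Ppox* in libraries labelled *Il1rl1*-/-, beside 3540 of 11091 and 3425 of 11196 genes. The median log2 fold change was 0.16 over the 7 enzymes tested in WT and 0.08 over the 6 tested in libraries labelled *Il1rl1*-/-. Among the enzymes tested, *Alad* had the largest change, and it was downward. In WT, *Alad* passed the filter on low counts through the monocytes, at 17 to 45 counts beside 5 to 10 in pre-RPMs. Only a fall could be called there by edgeR, so the WT direction carries that limit. It was at 6.91, 5.42, 3.92, and 4.51 CPM in WT monocytes, all above the WT pre-RPMs at 1.23 to 2.63, and its log2 fold change was −1.45 (edgeR, SE 0.31, adjusted p = 0.0122). In monocytes labelled *Il1rl1*-/- it was at 19.8, 14.4, 4.32, and 9.71 CPM and in the corresponding pre-RPMs at 3.80, 4.94, 2.99, and 3.37 CPM. Only monocyte library 3 fell within the pre-RPM range, and the log2 fold change was −1.63 (edgeR, SE 0.39, adjusted p = 0.0153).

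*Alad* was lower in the pre-RPMs than in the monocytes of all 8 mice. With the mouse number as a block, which pairs the cell types of each animal, *Alad* was called in libraries labelled *Il1rl1*-/- (−1.62, edgeR's adjusted p = 0.0011) but not in WT (−1.43, edgeR's adjusted p = 0.0157), and DESeq2 called it in both (−1.45 with adjusted p = 0.00689 and −1.65 with adjusted p = 0.00164). *Ppox* was higher in the pre-RPMs of all 8 mice, but did not pass (0.66, SE 0.27, adjusted p = 0.12 in WT and 0.52, SE 0.19, adjusted p = 0.0847 in libraries labelled *Il1rl1*-/-, edgeR). *Fech* was also higher in the pre-RPMs of all 8 mice without passing. It was at 0.84 (SE 0.36, adjusted p = 0.133) and 0.32 (SE 0.18, adjusted p = 0.261), and the WT value fell to 0.30 without WT pre-RPM replicate 3 (edgeR). *Alas2*, which the filter on low counts removed from both comparisons, was compared alone in exact 2-sided permutation tests of log2 CPM (p = 0.343 in WT and p = 0.743 in libraries labelled *Il1rl1*-/-, the smallest possible p being 0.0286), and so was *Uros* in libraries labelled *Il1rl1*-/- (exact permutation p = 0.0571). When every gene with at least 1 count was tested, edgeR called *Alas2* in WT. *Alas2* was at 0.602 to 1.61 CPM in WT monocytes and 0.467, 1.05, 74.5, and 9.56 in WT pre-RPMs. Summed markers of neutrophils, NK and T cells, and B and plasma cells were also higher in monocyte libraries than in pre-RPMs. Those of eosinophils, basophils, and mast cells were lower, at 37.9 ± 10.3 CPM in WT monocytes and 68.5 ± 9 in WT pre-RPMs. The summed neutrophil markers were at 1600 ± 760 CPM in WT monocytes and 111 ± 46.0 in WT pre-RPMs, and the NK and T cell markers at 1160 ± 523 and 111 ± 30.3. Their most abundant genes were *S100a9* and *Gzma*, and the part of these cells in the level of *Alad* was not tested.

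Between genotypes, *Alad* in RPMs was the only enzyme called. *Alad* was at 6.38, 7.77, 7.51, and 8.35 CPM in WT RPMs and at 23.6, 12.3, 28.4, and 33.6 CPM in RPMs labelled *Il1rl1*-/-, with no overlap. Its log2 fold change was 1.69 (edgeR, SE 0.27, adjusted p = 0.0172), and it was 1 of 8 enzymes called at an adjusted p under 0.05, a threshold that 0.233% of the 11150 genes tested passed. Leaving out single libraries kept the direction, from 1.49 to 1.93, but ended the call in 5 of 8 fits (edgeR's adjusted p up to 0.0858), those without WT RPM replicate 1, 2, or 4 or without RPM replicate 3 or 4 labelled *Il1rl1*-/-. Without mice 3 and 4 it was 1.30 (edgeR's adjusted p = 0.0666). With the mouse number as a block, *Alad* was 1.63 (edgeR's adjusted p = 0.000254) and again the only enzyme called, among 81 genes in place of 26. Of the markers of other cells, *S100a9* alone was called between RPMs (−2.51, edgeR's adjusted p = 0.00816). It was at 4.02 to 6.96 CPM in WT RPMs and 0.642 to 1.80 in RPMs labelled *Il1rl1*-/-. *S100a9*, the 1 of 8 neutrophil genes tested there, passed the filter on low counts through the WT libraries. Only a fall could be called for it.

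The same direction was seen for *Alad* in the other cell types without passing the test. In pre-RPMs, the libraries labelled *Il1rl1*-/- (2.99 to 4.94 CPM) all exceeded WT (1.23 to 2.63), and the log2 fold change was 1.00 (edgeR, SE 0.32, adjusted p = 0.3). *Alad* passed the filter on low counts there through the libraries labelled *Il1rl1*-/-, at 10 to 29 counts beside 5 to 10 in WT. Only a rise could be called, so its direction in pre-RPMs is no support. In monocytes, the log2 fold change of *Alad* was 1.18 (edgeR, SE 0.39, adjusted p = 0.997), and mouse 3 labelled *Il1rl1*-/-, at 4.32 CPM, lay within the WT range of 3.92 to 6.91. No enzyme was called in pre-RPMs, where 0.552% of 10698 genes were, or in monocytes, where 0.0614% of 11405 genes were, and none was with the mouse number as a block, which called 27 genes in place of 7 in monocytes. At an unadjusted p under 0.05, only *Alad* passed in pre-RPMs, and *Alad* and *Cpox* passed in monocytes, beside 941 of 10698 and 410 of 11405 genes. *Cpox* was at 12.6 to 14.6 CPM in monocytes labelled *Il1rl1*-/- and 8.14 to 11.4 in WT (log2 fold change 0.44, SE 0.15, edgeR's adjusted p = 0.997), without overlap. DESeq2 called no enzyme in these 2 cell types, whereas testing every gene with at least 1 count called *Alad* in monocytes (1.15, adjusted p = 0.000796 in edgeR) and *Alas2* in pre-RPMs. Of the markers of other cells, *Ncr1* (−2.04), *Prf1* (−2.03), *Gzma* (−1.94), *Ms4a1* (−1.40), and *Pax5* (−1.25) were called lower in pre-RPMs labelled *Il1rl1*-/- by edgeR. None was called higher. In those pre-RPMs *Prf1* was as low as 1.68 CPM and *Ncr1* and *Ms4a1* as low as 2.06, so this count carries the limit of the filter on low counts. The part of these cells in the level of *Alad* was not tested.

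For the erythroid synthase, differences between genotypes could not be resolved in either direction in the main fits. In RPMs, the log2 fold change of *Alas2* was −0.34 with an interval of 2 SE on either side from −2.06 to 1.39, and that of *Fech* was −0.24, from −1.73 to 1.26. For *Alas1*, the interval was narrower, from −0.28 to 0.24, and for *Ppox* it was from −0.36 to 0.14. In pre-RPMs, where *Alas2* was removed by the filter, the exact 2-sided permutation test of log2 CPM gave p = 0.257. There, edgeR called *Alas2* when every gene with at least 1 count was tested. In monocytes, the exact permutation p was 0.6 for *Alas2* and 0.2 for *Uros*.

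Whether the step from pre-RPM to RPM differed between genotypes was tested as an interaction over 16 libraries. No enzyme was called by edgeR, while 0.107% of 12150 genes were, and at an unadjusted p under 0.05 no enzyme passed either, beside 914 of 12150 genes. DESeq2 also called none. *Alas2* had the largest value, a rise greater by 3.60 on the log2 scale in libraries labelled *Il1rl1*-/- (edgeR, SE 1.79, adjusted p = 0.7, unadjusted p = 0.0578), which fell to 1.09 without WT pre-RPM replicate 3 and was −0.25 without mice 3 and 4. The call for *Alas2* depended on the filter on low counts, since edgeR called the same value, 3.60, when every gene with at least 1 count was tested (adjusted p = 4.39e-39). With the mouse number as a block, *Alas2* was 2.89 (adjusted p = 0.0583 in edgeR) and no enzyme was called, among 36 genes in place of 13. The value for *Alad* was 0.69 (edgeR, SE 0.48, adjusted p = 0.817), with 2 SE on either side from −0.28 to 1.66, and for *Ppox* it was −0.16, from −0.66 to 0.34.

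The genes most like each enzyme in log2 CPM, among 11673 genes and over the 24 libraries, differed from enzyme to enzyme. These correlations are descriptions, since the libraries share mice and fall into groups. Among the genes most like *Alas2* were *Hbb-bs* (Pearson r = 0.991) and *Hba-a1* (0.987), and after the mean of each group was taken away *Hbb-bs* (0.942), *Hba-a2* (0.926), and *Hba-a1* (0.922) came first. *Fech* was most like *Slc25a39* (0.987), *Ube2o* (0.984), and *Slc25a37* (0.983), and within groups *Mkrn1* (0.971), *Bnip3l* (0.967), and *Slc25a39* (0.963). *Urod* was most like *Ubac1* (0.909), *Ranbp10* (0.904), and *Epb41* (0.899), and within groups *Atp2b4* (0.901). *Ppox* resembled *Pnisr* (0.970), *Cep290* (0.962), and *Rasal2* (0.961). *Uros* resembled *Fcrl1* (0.902), *Skp2* (0.898), and *Hs3st2* (0.896), and *Alad* resembled *Mcm3* (0.852), *Nr1d2* (0.845), and *AU040320* (0.827). *Cpox* was nearest to *Fdx1* (0.810), and *Alas1* to *Sqor* (0.822), with no globin gene among the first 3 of either. Among the enzymes themselves, *Alas2* and *Fech* were the most alike (0.957), followed by *Alas2* and *Ppox* (0.855), and after the group means were taken away the values were 0.807 and 0.0186. In contrast, *Alas1* had an r of 0.0135 with *Alas2* and −0.0134 with *Fech*.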

How the data were processed

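The authors trimmed the stranded total RNA reads with cutadapt 2.8 (per the labels), used STAR 2.5.1 for alignment, and ran featureCounts 1.6.2 to count read pairs over exons joined by gene name, with Ensembl GRCm38 release 95 (per the file headers), and they deposited 1 table of raw counts per library. Strand was used in counting. The 24 chromatin accessibility samples of the series were not analysed here.

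Groups were taken from the labels. Each pair of groups was fitted with edgeR 4.0.16 in R 4.3.3 (TMM normalization, filterByExpr, quasi-likelihood test, no block), with Benjamini-Hochberg adjustment over all genes tested. Cell types were called at an adjusted p under 0.01 and a log2 fold change beyond 1 in either direction, genotypes and the interaction at an adjusted p under 0.05. Genes removed by filterByExpr were compared in exact permutation tests of log2 CPM (prior count 2). The fits were tested on simulated data. The members and lists were chosen with earlier results of these data known. Every enzyme was named, as were the 4 genes of each list that changed most among those called from WT pre-RPM to RPM, and 12 genes of direct bearing on the enzymes. Some genes are not reported here.

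Same-numbered cell types of a genotype come from the same mouse by the labels, and their deviations correlated with a mean r of 0.0628 to 0.208. Same-numbered mice of different genotypes are different animals whose libraries share an index by the labels. Their deviations correlated with a mean r of 0.257 in monocytes and 0.162 in RPMs, above 0.1 in every pair, and of 0.092 in pre-RPMs. The main fits used no block, and their p-values do not take account of these correlations. Fits with the mouse number as a block were made as an alternative in every comparison, also in pre-RPMs. Alternatives were DESeq2 1.42.0, RLE size factors, testing every gene with at least 1 count, 1 fit of all 24 libraries, no fold change threshold, a tested 2-fold threshold (glmTreat), the replicate block, and leaving out each library. Leaving out mice 3 and 4 was added after the data were seen. Figures were drawn with matplotlib 3.10.9.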

Additional observations from a re-analysis of the deposited data

Results flagged for a closer look

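In 4 of the 48 combinations of enzyme and group, 1 library lay far from the other 3, with a gap to its neighbour that was most of the whole range (above Dixon's critical value), which chance gives in about 1 of 20 groups. *Alas2* was highest in WT pre-RPM mouse 3, at 74.5 CPM (gap over range 0.877), and *Fech* was highest in the same library, at 34.7 CPM (0.892). That library also had the highest summed erythroid markers of the WT pre-RPMs, 600 CPM beside 19.5 to 103 CPM. *Urod* was lowest in pre-RPM mouse 4 labelled *Il1rl1*-/-, at 9.36 CPM (0.96), and *Ppox* was highest in pre-RPM mouse 2 labelled *Il1rl1*-/-, at 11.9 CPM (0.878).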

How the results depend on the processing

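Shorthand here is KO for libraries labelled *Il1rl1*-/-. Testing a 2-fold change itself (glmTreat) left 3 enzymes called from pre-RPM to RPM in WT and 3 in KO, and 198 (WT) and 257 (KO) genes from monocyte to pre-RPM. With no fold threshold, 4411 (WT) and 4965 (KO) genes were called from pre-RPM to RPM. From monocyte to pre-RPM, *Alad* made up the 1 enzyme called by DESeq2 in WT and 1 in KO, by the fit of all 24 libraries in KO (1), and with the replicate block in KO (1), while testing every gene called 2 enzymes in WT (*Alad*, and *Alas2*, which the filter had removed) and 1 in KO (*Alad*). All genes called there in WT were 694 with DESeq2, 1094 with every gene tested, and 772 with all 24 libraries, and in KO 1060 with every gene tested. Testing every gene called 1 enzyme in KO against WT monocytes (*Alad*), 1 in pre-RPMs (*Alas2*, otherwise removed by the filter), and 1 in the interaction (*Alas2*), and 139, 265, 272 (RPMs), and 224 (interaction) genes. DESeq2 called 26 genes between monocytes, 60 between RPMs, and 36 in the interaction. The fit of all 24 libraries called 16 between monocytes, 17 between pre-RPMs, and 3 in the interaction. The replicate block called 27, 145, and 81 genes between monocytes, pre-RPMs, and RPMs, and 36 in the interaction, and it changed no call of an enzyme other than *Alad* from KO monocyte to pre-RPM. Without mice 3 and 4, 3 enzymes were called from KO pre-RPM to RPM and 0 between RPMs, with 83 genes between RPMs and 41 in the interaction. The cause of these differences was not tested.

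No value that turned sign was called in the fit in which it did so, but *Alas2* in the interaction was called with every gene tested (3.60). Without mice 3 and 4 these were *Cpox* from KO pre-RPM to RPM (−0.0029), between RPMs *Alas1* (0.0514), *Alas2* (0.0095), *Urod* (−0.27), and *Fech* (0.25), and in the interaction *Alas2* (−0.25) and *Urod* (−0.45). Others were *Alas1* between RPMs with every gene tested (0.0046) and *Urod* from WT monocyte to pre-RPM with the replicate block (0.0042).

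Leaving out single libraries gave 3 to 5 enzymes called from WT pre-RPM to RPM (3 without WT pre-RPM replicate 4), 0 to 1 from WT monocyte to pre-RPM (1 without WT monocyte replicate 3) and from KO monocyte to pre-RPM (1 without KO monocyte replicate 3), and 0 to 1 between RPMs. All genes called ranged from 169 (without WT pre-RPM replicate 4) to 1041 (without WT monocyte replicate 3) and from 336 to 813 from WT and KO monocyte to pre-RPM, and from 1 to 8 and 37 to 68 between genotypes in monocytes and pre-RPMs. Uncalled values crossed 0 as follows. From WT monocyte to pre-RPM, *Uros* ranged from −0.23 to 0.30 and *Urod* from −0.12 to 0.0877. In KO, *Urod* ranged from −0.18 to 0.0123 and *Cpox* from −0.26 to 0.0447. Between monocytes, *Alas1* ranged from −0.13 to 0.16. Between pre-RPMs, *Uros* ranged from −0.35 to 0.28, *Urod* from −0.0327 to 0.14, *Ppox* from −0.0806 to 0.19, and *Fech* from −0.57 to 0.14. Between RPMs, *Alas1* ranged from −0.12 to 0.0559, *Alas2* from −0.95 to 0.77, *Uros* from −0.16 to 0.0846, and *Fech* from −0.81 to 0.76. In the interaction, *Uros* ranged from −0.32 to 0.29 and *Fech* from −0.40 to 1.17. RLE size factors changed no call. At this depth, *Alas2* in monocytes and most pre-RPMs was too near the detection limit for a fold change to be resolved.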
